A study of Mus musculus with 10 samples.

Results

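The transcripts described here encode the nuclear subunits of respiratory complex I, the NADH:ubiquinone oxidoreductase of the inner mitochondrial membrane. The members were chosen by name: 35 subunit genes were listed, 33 of them had a row in the deposited table of 15341 genes, and all 33 passed the filter on low counts among 12992 genes tested. Ndufa13 and Ndufb8 were not analysed here. Of the 33 genes, 6 encode core subunits (Ndufv1, Ndufv2, Ndufs1, Ndufs3, Ndufs7 and Ndufs8) and 27 encode accessory subunits.

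RNA was sequenced from 10 hearts of male mice, with 5 hearts in each group. The S1Pless mice had the genotype Sphk1f/-:Sphk2f/-:Mx1Cre+, that is, a floxed and a null allele of each sphingosine kinase gene together with Mx1-Cre, a recombinase under the control of the interferon-responsive Mx1 promoter, whose activity is not limited to heart muscle. The littermate controls had the genotype Sphk1f/-:Sphk2f/-:Mx1Cre-, so they too carried a single functional copy of each kinase gene. Sphingosine kinases make sphingosine 1-phosphate (S1P), a lipid messenger of blood plasma. The sources used here give neither the age nor any inducer of the recombinase. The libraries have distinct title numbers, and nothing further states that they came from separate animals, so p-values measure only the spread between these samples, which may be technical. The comparison asks how heart transcripts differ in mice described as lacking plasma S1P, here for complex I.

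Complex I takes electrons from NADH, passes them along a flavin and a chain of iron-sulphur clusters to ubiquinone, and pumps protons across the inner membrane. Its core subunits carry the cofactors and the proton channels. The peripheral arm's core subunits are encoded in the nucleus and the membrane arm's core subunits by mitochondrial DNA. The accessory subunits surround this core and are needed for assembly and stability. Heart muscle cells are packed with mitochondria, and complex I transcripts are abundant in this tissue.

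Complex I promoters are shown first, and no link between their motifs and the covariation of the transcripts was tested. RefSeq promoter sequences of the build GRCm38.p6, each from 250 bases before to 50 bases after the start site, matched 30 of the 33 genes with 32 promoters. The counts were made on another build, so these positions belong to the RefSeq table alone. Printed 5′ to 3′ are Ndufa6, Ndufc1 and Ndufs6, whose transcripts followed the other subunits closely, and Ndufa10, whose transcript followed them least among the genes with a promoter. Capitals mark matches, on either strand, to the motifs named after the sequences.
Ndufa6, chr15:82354242-82354541, minus strand: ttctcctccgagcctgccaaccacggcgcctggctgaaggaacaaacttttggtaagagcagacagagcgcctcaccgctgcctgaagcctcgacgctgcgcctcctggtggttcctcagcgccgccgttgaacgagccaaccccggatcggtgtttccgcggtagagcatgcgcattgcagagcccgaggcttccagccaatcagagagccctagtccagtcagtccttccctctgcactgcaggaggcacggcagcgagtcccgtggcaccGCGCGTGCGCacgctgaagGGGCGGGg
Ndufc1, chr3:51408906-51409205, minus strand: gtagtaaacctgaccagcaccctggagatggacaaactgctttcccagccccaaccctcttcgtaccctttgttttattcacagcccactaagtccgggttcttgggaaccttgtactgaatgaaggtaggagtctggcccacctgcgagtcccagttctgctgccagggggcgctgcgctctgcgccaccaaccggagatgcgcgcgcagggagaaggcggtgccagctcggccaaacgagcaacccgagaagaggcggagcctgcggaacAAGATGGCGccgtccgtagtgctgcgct
Ndufs6, chr13:73328433-73328732, minus strand: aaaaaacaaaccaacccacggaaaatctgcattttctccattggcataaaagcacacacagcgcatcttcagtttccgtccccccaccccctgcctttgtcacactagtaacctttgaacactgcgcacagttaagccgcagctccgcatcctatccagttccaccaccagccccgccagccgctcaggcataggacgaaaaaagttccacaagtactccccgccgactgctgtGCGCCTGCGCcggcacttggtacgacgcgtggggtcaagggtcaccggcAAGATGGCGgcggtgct
Ndufa10, chr1:92473709-92474008, minus strand: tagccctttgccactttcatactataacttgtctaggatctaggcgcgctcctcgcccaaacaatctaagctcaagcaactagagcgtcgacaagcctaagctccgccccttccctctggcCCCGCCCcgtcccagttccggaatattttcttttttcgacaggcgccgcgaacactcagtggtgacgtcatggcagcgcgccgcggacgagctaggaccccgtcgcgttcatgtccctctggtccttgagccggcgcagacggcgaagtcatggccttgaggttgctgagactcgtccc
Motifs of factors known for respiratory genes were searched on both strands, and a promoter counted once for each motif. Ndufa5 has overlapping promoters that hold the same NRF1 and SP1 matches, and each of these promoters was counted. The NRF1 motif was in 8 of 32 complex I promoters (25%) and in 4.60% of all 32851 promoters of the same length. The YY1 motif, AANATGGCG, was in 7 of 32 (21.9%) and in 2.38% of all promoters. Less apart were the ETS motif CCGGAAG (12.5% against 8.86%), the motif AAGGTCA of oestrogen-related receptors (9.38% against 4.72%) and the SP1 motif GGGCGGG (34.4% against 25.6%). In Ndufc1 and Ndufs6 the YY1 match began 23 and 34 bases after the start site, and in Ndufa9, Ndufs4 and Ndufs7 the same letters began 30, 36 and 25 bases after it. Ndufs6 also held an NRF1 match that began 16 bases before the start. Among the motifs searched, Ndufa10 held only an SP1 match. Ndufb6 and Ndufa12, not printed, followed the other subunits slightly more closely than Ndufs6 did. Ndufb6 held an ETS and an SP1 match. Ndufa12, and Ndufc2 close behind Ndufs6, held 0 of the motifs. A match is a description of letters and not a measured site.

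The libraries held 16354071 to 20832566 counts, of which the 33 genes took 0.694% to 1.02%. Single subunits had between 324 counts (Ndufb4) and 16008 counts (Ndufv1) in a library, so counting error was small beside the spread between hearts. Levels are given in CPM, counts divided by library size after scaling with TMM factors, which correct for differences in library composition. Neither targeted gene was called, with a log2 fold change of -0.74 ± 0.28 (SE) for Sphk1 and -0.27 ± 0.11 for Sphk2 (edgeR adjusted p = 0.168 and 0.180). All 12 cardiomyocyte markers were detected and summed to 62320 to 88180 CPM, as the tissue label states.

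All 33 complex I subunits had a lower fitted level in S1Pless than in control hearts, and none of these differences passed the test. The median log2 fold change of the 33 was -0.25, a level 1.19-fold lower, with single genes from -0.40 (Ndufa3) to -0.12 (Ndufb7). Over all genes tested the median was -0.01, and 52.6% of genes had a negative value. At an adjusted p below 0.05 in edgeR's quasi-likelihood test, 0 of 33 were called, against 0.316% of all genes called lower and 3.72% called in either direction. The adjusted p-values of the 33 ran from 0.162 to 0.755. At an unadjusted p below 0.05, 4 of the 33 genes were lower, against 6.82% of all genes lower and 19.9% in either direction. They were Ndufs1, Ndufa10, Ndufa9 and Ndufv1. DESeq2 called 2 subunits and limma-voom with sample quality weights 0, with medians of -0.27 and -0.16. Over all 12992 genes these methods called 1028 (264 lower) and 589 (60 lower). Scaling by library totals alone, which moved the median of all genes by 0.136, gave -0.11. The 33 values are not separate pieces of evidence, since the genes moved together across the same 10 hearts.

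**Figure D1:**
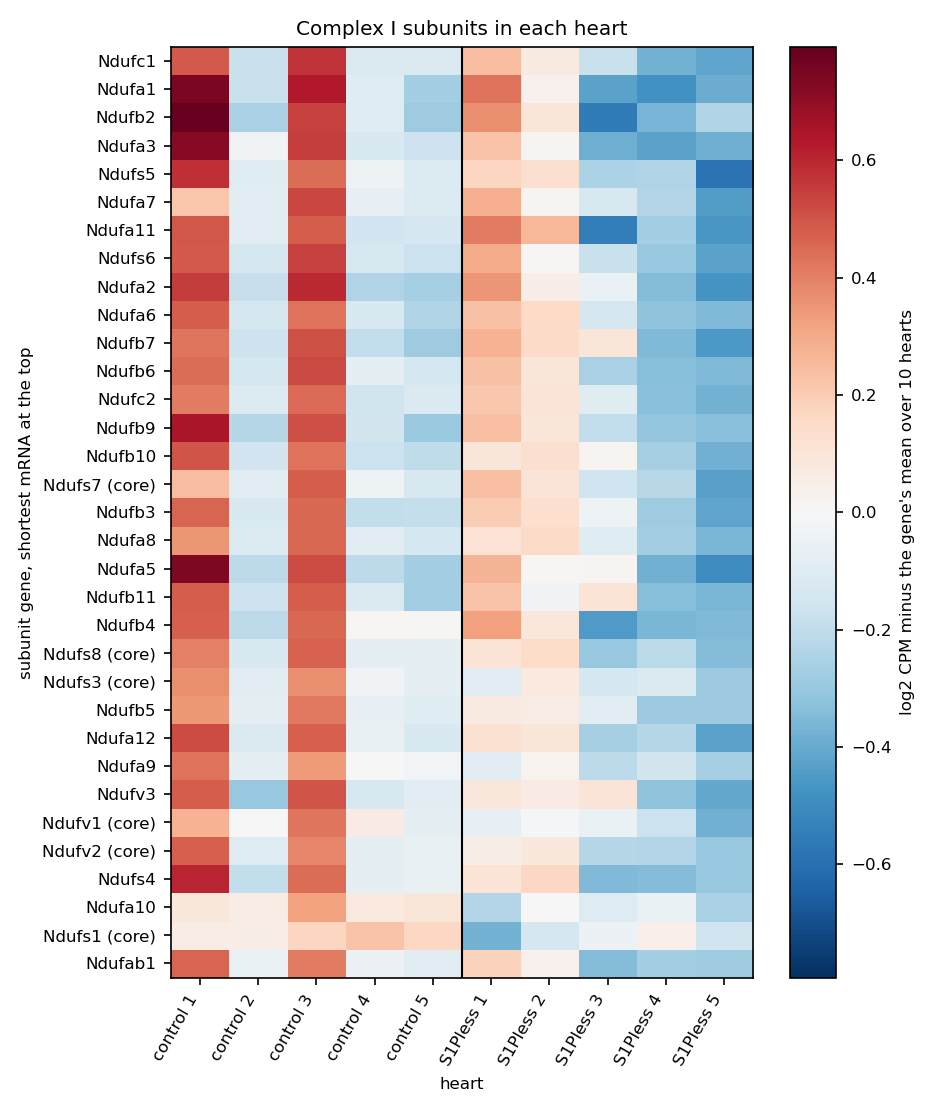
Log2 CPM of each of 33 complex I subunits (rows, shortest mRNA at the top) in each of 10 hearts (columns), as the difference from the gene's mean over all hearts. Control replicates 1 and 3 were the highest hearts in 30 of 33 rows, and Ndufs1 and Ndufa10 near the bottom show little of that pattern.

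Control replicates 1 and 3 stood apart from the other controls in nearly every subunit. The mean log2 CPM of the 33 genes was 8.06 in each of these hearts, against 7.47, 7.52 and 7.47 in control replicates 2, 4 and 5, a 1.49-fold difference within the control group. In S1Pless replicates 1 to 5 it was 7.76, 7.67, 7.42, 7.32 and 7.23. The groups therefore overlapped, with S1Pless replicates 1 and 2 above control replicates 2, 4 and 5. Single genes followed the same order. Both control replicates 1 and 3 lay above the other controls in 31 of 33 genes, S1Pless replicates 1 and 2 both lay above control replicates 2, 4 and 5 in 28, and S1Pless replicate 5 was the lowest heart in 24. No subunit had its lowest level in a control.

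Without control replicates 1 and 3, an alternative chosen after seeing the data, the median log2 fold change of complex I was -0.0033, and 17 of 33 subunits had a negative value. No subunit was called in that fit, and only Ndufs1 had an unadjusted p below 0.05. These hearts were left out because they were high, while S1Pless replicates 1 and 2 were kept, so a smaller difference follows in part from the choice. Leaving out a single heart kept all 33 values negative in each of 10 fits, with a median between -0.31 (without S1Pless replicate 1) and -0.15 (without control replicate 3). The titles carry a number that the sources used here do not explain. Among hearts with neighbouring numbers, the mean log2 CPM of complex I in S1Pless minus control was -0.34 for control replicate 1 against S1Pless replicates 1 and 2. It was -0.05 for control replicate 2 against S1Pless replicate 3 and -0.19 for control replicate 5 against S1Pless replicates 4 and 5. Control replicates 3 and 4 had no S1Pless neighbour.

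**Figure D2:**
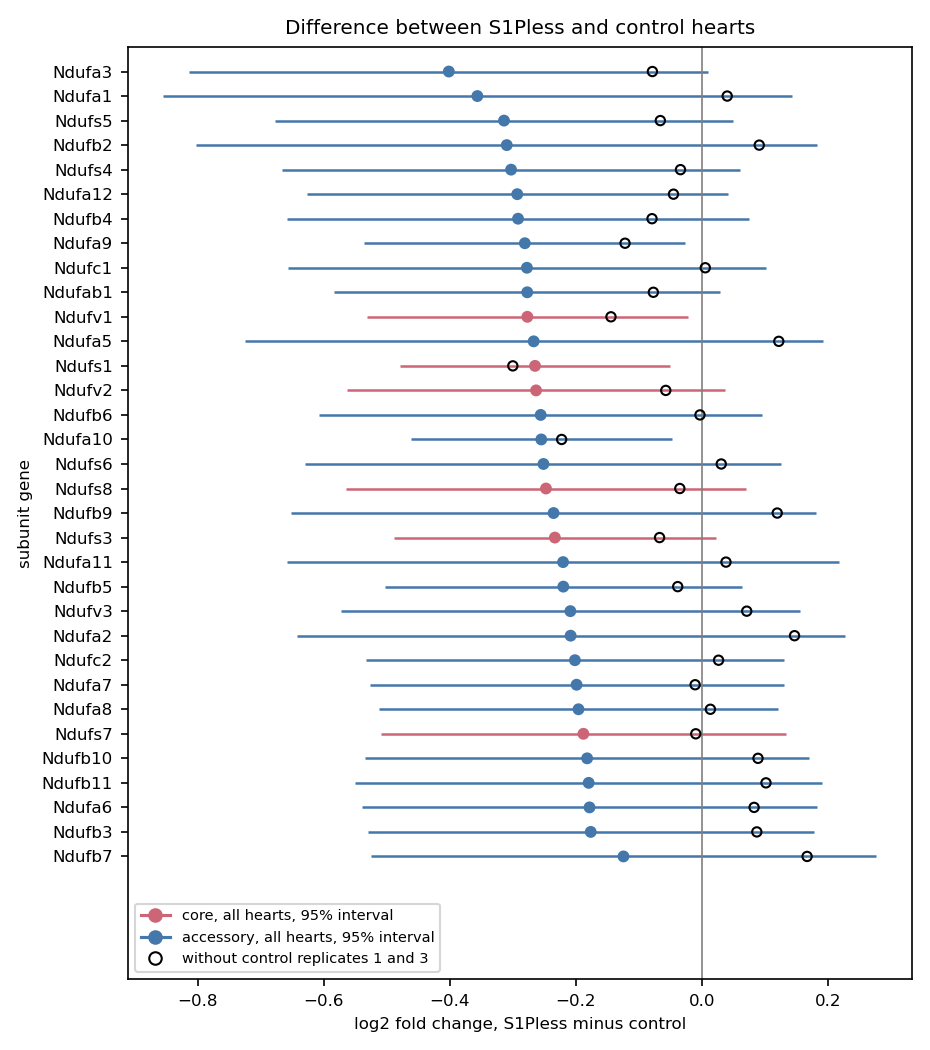
Log2 fold change, S1Pless minus control, of each subunit with its 95% confidence interval from the fit of all 10 hearts (filled, core and accessory in different colours), and the value without control replicates 1 and 3 (open circles). All 33 filled points lie below 0, and only Ndufs1 and Ndufa10 keep an open circle below -0.20.

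The core subunits of the peripheral arm catalyse the reaction itself. Ndufv1 (ENSMUSG00000037916) holds the flavin where NADH is oxidised. Its CPM was 768, 633, 852, 665 and 601 in control replicates 1 to 5 and 607, 631, 613, 566 and 488 in S1Pless replicates 1 to 5. Control replicates 1 and 3 were the highest hearts and S1Pless replicate 5 the lowest, and the groups overlapped through control replicate 5. The means were 704 ± 104 and 581 ± 57.2 CPM (SD, n = 5 each), a log2 fold change of -0.28 ± 0.12 (SE, edgeR adjusted p = 0.212).

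Ndufv2 (ENSMUSG00000024099), the iron-sulphur partner of Ndufv1, had 660, 442, 622, 452 and 456 CPM in the controls and 494, 503, 407, 404 and 385 CPM in the S1Pless hearts. S1Pless replicates 1 and 2 lay above the 3 lower controls. The log2 fold change was -0.26 ± 0.14 (edgeR adjusted p = 0.320).

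Ndufs1 (ENSMUSG00000025968), the largest iron-sulphur subunit, broke the pattern of the heart-to-heart differences. Its CPM was 684, 680, 741, 770 and 738 in the controls and 507, 599, 635, 677 and 589 in the S1Pless hearts. Every S1Pless heart lay below every control, though S1Pless replicate 4 was close to control replicate 2, and S1Pless replicate 1 was the lowest heart instead of replicate 5. The means were 723 ± 38.8 and 601 ± 62.9 CPM (SD, n = 5 each), a log2 fold change of -0.27 ± 0.10, with a 95% confidence interval from -0.48 to -0.05 (edgeR adjusted p = 0.162). Control replicate 4 was the highest control in this gene, and control replicate 1 was among the low ones. Without control replicates 1 and 3 the log2 fold change was -0.30 ± 0.11 (adjusted p = 0.134).

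Ndufs3 (ENSMUSG00000005510), Ndufs7 (ENSMUSG00000020153) and Ndufs8 (ENSMUSG00000059734) belong to the module that passes electrons to ubiquinone. Ndufs3 had 266, 194, 265, 202 and 196 CPM in the controls and 194, 216, 186, 190 and 169 CPM in the S1Pless hearts. Ndufs7 had 356, 284, 420, 292 and 275 CPM in the controls and 355, 323, 269, 258 and 223 CPM in the S1Pless hearts. In both genes S1Pless replicate 2 exceeded control replicates 2, 4 and 5, and in Ndufs7 S1Pless replicate 1 came close to control replicate 1. Ndufs8 had 252, 176, 265, 182 and 181 CPM in the controls and 206, 212, 156, 165 and 151 CPM in the S1Pless hearts, with the same overlap. The log2 fold changes were -0.23 ± 0.12 for Ndufs3, -0.19 ± 0.15 for Ndufs7 and -0.25 ± 0.15 for Ndufs8 (edgeR adjusted p = 0.299, 0.516 and 0.377).

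Among accessory subunits Ndufa10 (ENSMUSG00000026260), a kinase-like protein of the membrane arm, resembled Ndufs1. It had 619, 605, 724, 612 and 623 CPM in the controls and 495, 581, 542, 562 and 487 CPM in the S1Pless hearts. The groups did not overlap, control replicate 3 was high, and control replicate 1 lay among the other controls. The means were 637 ± 49.3 and 533 ± 41.2 CPM (SD, n = 5 each), a log2 fold change of -0.26 ± 0.10, with a 95% confidence interval from -0.46 to -0.05 (edgeR adjusted p = 0.162). Without control replicates 1 and 3 it was -0.22 ± 0.10 (adjusted p = 0.212). Ndufs1 and Ndufa10 were the 2 of 33 subunits whose groups did not overlap, against 1.82% of all genes with every S1Pless heart below every control and 6.35% without overlap in either direction. DESeq2 called both (adjusted p = 0.0218 and 0.0251) and no other subunit, among 1028 of 12992 genes called, 264 of them lower.

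Ndufa9 (ENSMUSG00000000399), a nucleotide-binding subunit near the ubiquinone site, had 578, 408, 543, 429 and 423 CPM in the controls and 404, 438, 372, 389 and 357 CPM in the S1Pless hearts. The groups overlapped through S1Pless replicate 2. Its log2 fold change of -0.28 ± 0.12 (edgeR adjusted p = 0.206) became -0.12 ± 0.10 without control replicates 1 and 3. Ndufa3, a small membrane subunit with the most negative fitted value, had 281, 167, 249, 157 and 152 CPM in the controls and 200, 174, 131, 127 and 131 CPM in the S1Pless hearts. Here too the difference lay mainly in control replicates 1 and 3, and without them the log2 fold change went from -0.40 ± 0.19 to -0.08 ± 0.15.

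Among the subunits that moved most closely with the rest were Ndufa6, which binds acyl carrier protein, Ndufc1, a single-pass membrane subunit, and Ndufa12, an accessory subunit of the peripheral arm, with Ndufb6 (r = 0.989) between the latter pair. Ndufa6 (ENSMUSG00000022450) had 347, 225, 335, 229 and 211 CPM in the controls and 292, 277, 226, 199 and 195 CPM in the S1Pless hearts. Ndufc1 (ENSMUSG00000037152) had 196, 124, 207, 129 and 129 CPM in the controls and 166, 147, 123, 107 and 104 CPM in the S1Pless hearts. Ndufa12 (ENSMUSG00000020022) had 152, 98.1, 148, 102 and 97.9 CPM in the controls and 116, 114, 88.5, 91.0 and 79.2 CPM in the S1Pless hearts. In each of them control replicates 1 and 3 led, S1Pless replicates 1 and 2 came next, and the remaining controls followed. Their log2 fold changes were -0.18 ± 0.17, -0.28 ± 0.18 and -0.29 ± 0.16 (edgeR adjusted p = 0.588, 0.409 and 0.321).

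Core and accessory subunits did not separate in their group difference. The median log2 fold change was -0.26 in the 6 core genes and -0.25 in the 27 accessory genes, a difference of -0.0039. Mean log2 CPM of core minus accessory genes ran from 0.921 to 1.23 in controls and from 0.892 to 1.27 in S1Pless hearts, so the groups covered the same range. It was lowest in control replicates 1 and 3 and S1Pless replicates 1 and 2, the hearts with the highest accessory levels. By position in the complex, the median was -0.25 in 15 peripheral subunits, -0.27 in 8 subunits of the proximal membrane arm and -0.22 in 9 of the distal membrane arm. Ndufab1, the acyl carrier protein that sits in both arms, had a log2 fold change of -0.28 ± 0.14.

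The subunits covaried tightly across hearts. Over the 528 pairs of the 33 genes the median Pearson r of log2 CPM was 0.924 (10 hearts), and with each group's mean subtracted it was 0.921. Over all pairs of genes tested these medians were -0.0050 and 0.0019. Genes of like mRNA length gave a higher background. Among 2565 genes with the shortest mRNAs (up to 1744 bases) the median r, group means subtracted, was 0.285. Of the 33 subunits, 30 had an mRNA within that bound. Among 2565 genes with the longest mRNAs the median r was 0.203. The pairs share libraries and scaling, and r is given as a description. With group means subtracted, 320 of the 528 pairs had an r above 0.9, and the first principal component of the scaled values took 87.6% of the variance. By rank the median was 0.818. Without control replicates 1 and 3 the median r, group means subtracted, was 0.865 over 8 hearts, so the covariation did not rest on those hearts alone.

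Ndufs1 and Ndufa10 stood outside this pattern. The median r was 0.933 within the accessory genes, 0.848 within the core genes (0.907 without Ndufs1) and 0.892 between core and accessory genes. All 31 negative pairs involved Ndufs1, which had a negative r with every other subunit except Ndufa10 (r = 0.51). Its r with the mean of the other 32 genes was -0.43, and that of Ndufa10 was 0.41. The third lowest was Ndufv1, at 0.89, and the other 30 subunits had an r above 0.9, up to 0.993 for Ndufa6. The distal membrane arm had the highest median r, 0.946, the proximal membrane arm 0.927 and the peripheral arm 0.901. Ndufs1 belongs to the peripheral arm and Ndufa10 to the proximal membrane arm, which lowers their medians. The accessory genes of the peripheral arm, which leave out Ndufs1, had a median r of 0.922.

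**Figure D3:**
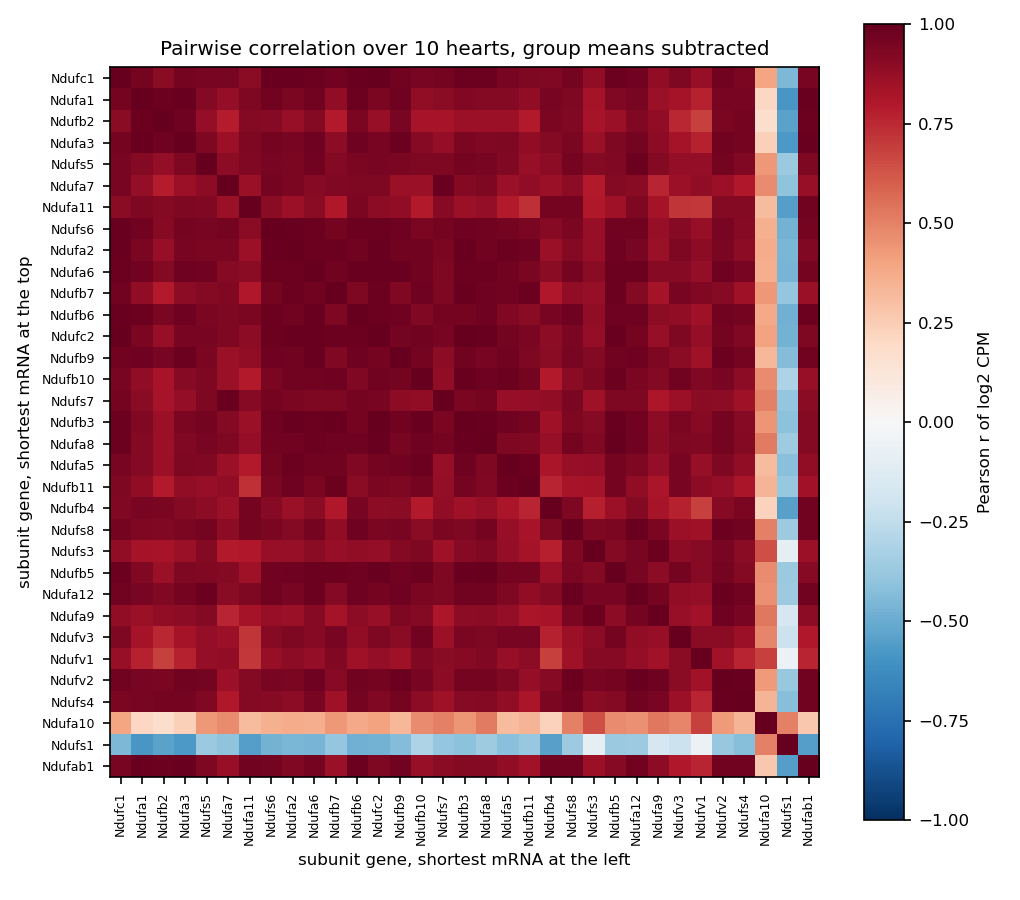
Pearson r of log2 CPM between each pair of 33 subunits over 10 hearts, group means subtracted, genes ordered by mRNA length. The median r over all pairs is 0.921. Ndufs1, which is negative with 31 subunits, and Ndufa10 stand out, and the remaining pairs run from 0.683 to 0.992.

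The spread between hearts ran with mRNA length, taken as the transcript paired with RefSeq in GENCODE M21. The within-group SD of log2 CPM was 0.441 in Ndufa1 (419 bases) and 0.438 in Ndufb2 (455 bases), and it was 0.109 in Ndufa10 (2020 bases) and 0.123 in Ndufs1 (2661 bases). Over the 33 genes the rank correlation of length and SD was -0.722, given as a description across genes that share the libraries. Not all genes followed this order: Ndufab1, the longest at 3479 bases, had an SD of 0.253, Ndufs4 (1698 bases) 0.311 and Ndufv3 (1582 bases) 0.315. With the length of all annotated exons in place of mRNA length the rank correlation was -0.45. Core genes, which have longer mRNAs (median 1354 bases against 704), had a median SD of 0.213 against 0.315 in accessory genes. The median over all genes tested was 0.198. Spread ran with level too, with a rank correlation of -0.516 between mean log2 CPM and SD.

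**Figure D4:**
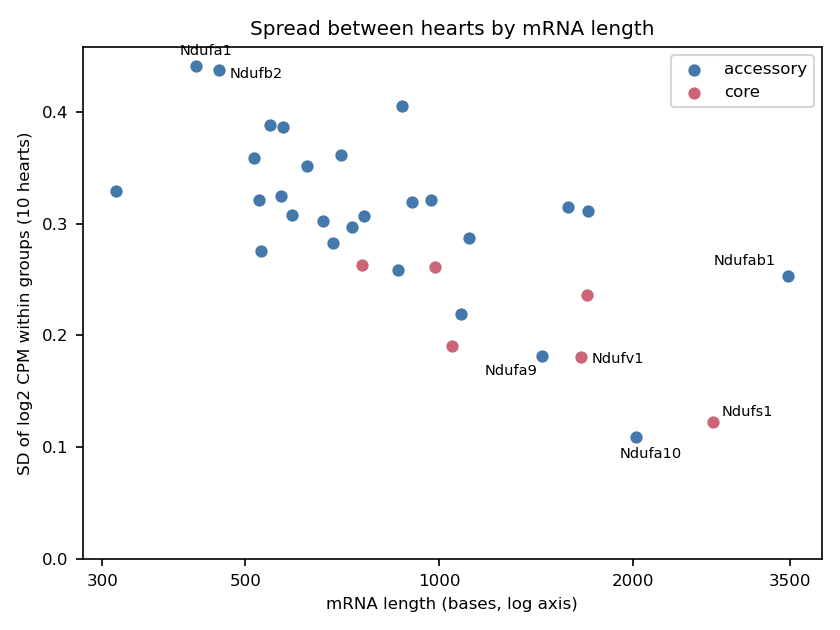
Within-group SD of log2 CPM (10 hearts) of each of 33 subunits against mRNA length in bases on a log axis, core and accessory genes in different colours. Short mRNAs such as Ndufa1 and Ndufb2 spread most (0.441 and 0.438) and Ndufa10 and Ndufs1 least (0.109 and 0.123).

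mRNA length also separated the same hearts over the genes outside complex I. The median deviation from the gene's mean in the shortest 20% of genes (up to 1744 bases, 2565 genes) minus that in the longest 20% (from 4983 bases) was 0.240 and 0.389 in control replicates 1 and 3. It was -0.064, -0.148 and -0.209 in control replicates 2, 4 and 5, on the log2 scale. In S1Pless replicates 1 to 5 it was 0.201, 0.088, -0.045, -0.217 and -0.241. This is close to the order of the hearts by complex I level, and 30 of the 33 subunits fell in the shortest 20%. The median log2 fold change was -0.06 in the shortest 20% and 0.03 in the longest 20%. With each library's trend over mRNA length removed, a scaling chosen after seeing the data, all 33 subunits remained negative with a median of -0.17, and none was called. At an unadjusted p below 0.05 there were then 14 subunits, and the lowest adjusted p was 0.0764 (Ndufa3). The share of all genes at that threshold in this fit is not given here, so the count of subunits has no background. The mean log2 CPM was then 7.84, 7.55, 7.79, 7.62 and 7.60 in the controls and 7.58, 7.60, 7.49, 7.49 and 7.399 in the S1Pless hearts, overlapping through control replicate 2. The median pairwise r was then 0.597 with group means subtracted. The part of mRNA length in the result was not tested further.

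**Figure D5:**
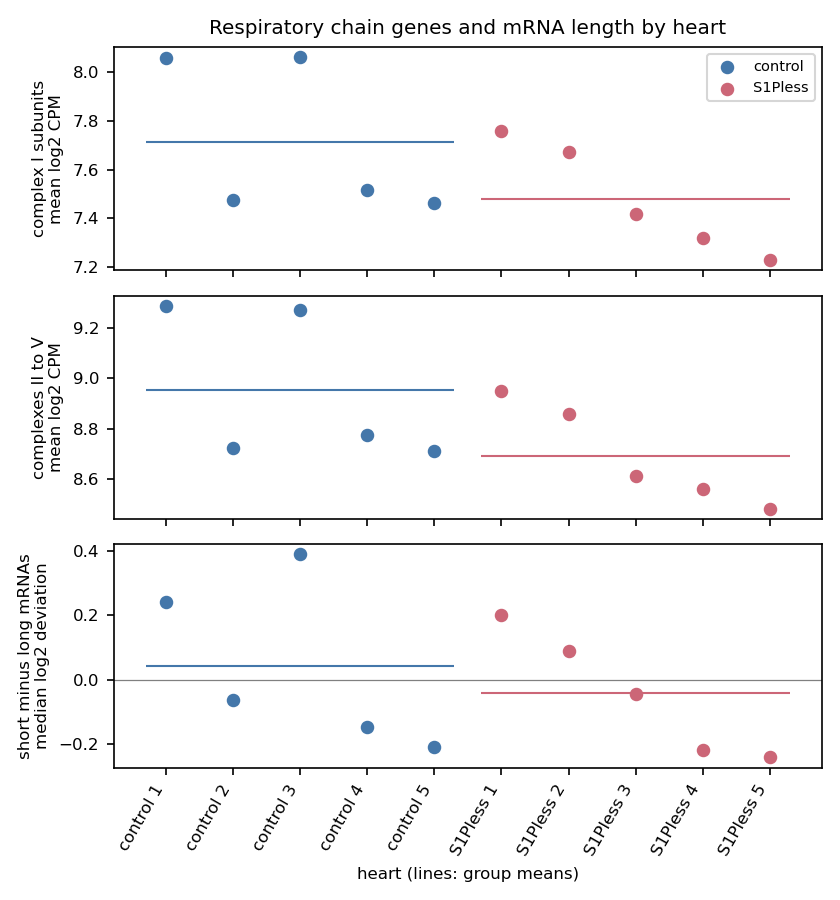
Mean log2 CPM of 33 complex I subunits (top), of 39 subunits of complexes II to V (middle) and the median log2 deviation of short minus long mRNAs outside complex I (bottom) in each heart, with lines at the group means. Control replicates 1 and 3 are the highest hearts in all panels, and S1Pless replicates 1 and 2 are the highest S1Pless hearts.

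Levels per length differed widely between subunits that the complex holds in equal number, apart from the acyl carrier protein. Per kilobase of mRNA the controls had 672 ± 169 CPM of Ndufb10, an intermembrane-space subunit, as the highest, and 29.97 ± 6.33 CPM of Ndufb4 as the lowest, a ratio of 22.4. Per kilobase of all annotated exons Ndufb10 was again highest (404 ± 102 CPM) and Ndufb2 lowest (14.0 ± 5.0 CPM), and the gene model of Ndufb2 holds 5628 exonic bases against an mRNA of 455 bases. Ndufb4 shared 37% of its 50-base stretches with annotated pseudogenes, so its count and level are uncertain. Stretches shared with another annotated gene were seen in 18 of 33 genes and exceeded 20% in 7, namely Ndufa12, Ndufb2, Ndufb4, Ndufb6, Ndufb9, Ndufs3 and Ndufs5. Core and accessory genes had similar medians in controls, 291 and 304 CPM per kilobase of mRNA.

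The other genes of complex I also had negative values, though the mitochondrially encoded ones followed another order of hearts. All 7 mitochondrially encoded core subunits had negative values (median log2 fold change -0.27), with 0 called by edgeR and 1 at an unadjusted p below 0.05. mt-Nd3 had the smallest p (log2 fold change -0.37 ± 0.15, edgeR adjusted p = 0.198). mt-Nd6 was at 690 CPM in control replicate 1 and at 200 to 367 CPM in all other hearts. Their median pairwise r of 0.513 with group means subtracted was lower than among the nuclear subunits. The mean log2 CPM of the 7 genes was 10.73, 10.13, 10.08, 10.00 and 10.05 in control replicates 1 to 5. It was 9.85, 10.07, 9.94, 9.97 and 9.74 in S1Pless replicates 1 to 5. Control replicate 3 was thus close to the lower controls, and S1Pless replicate 1 lay below all controls. The 17 tested assembly factors, which help build the complex and are not part of it, were all negative (median -0.19), with 0 called by edgeR and 5 at an unadjusted p below 0.05. Tmem70 and Ndufaf4 came nearest, with log2 fold changes of -0.26 ± 0.08 and -0.25 ± 0.08 (edgeR adjusted p = 0.0893 and 0.0902). These 2 were the only assembly factors with every S1Pless heart below every control. Of all genes, 1.82% were so placed and 6.35% had no overlap in either direction. At an unadjusted p below 0.05 in edgeR, 6.82% of all genes were lower and 19.9% differed in either direction. The same shares apply to the edgeR counts of the lists that follow.

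Complexes II to V resembled complex I. Of their 39 tested nuclear subunits 0 were called by edgeR, 9 had an unadjusted p below 0.05 and all were negative, with a median log2 fold change of -0.26 and a median pairwise r of 0.895 with group means subtracted. Their mean log2 CPM was again highest in control replicates 1 and 3 (9.29 and 9.27), against 8.71 to 8.78 in the other controls and 8.48 to 8.95 in S1Pless hearts. Of the 100 genes outside complex I most like the mean of its subunits (Pearson r over 10 hearts, group means subtracted), 19 were on the list of 39 tested subunits of complexes II to V, which made up 0.301% of the genes ranked. That list is not complete: Atp5mpl, Cox6a1, Atp5o and Cox8a, subunits of complexes IV and V, were among the 100 genes and not counted. The 10 most alike were Psmb6, Cox5b, Cox6b1, Atp5k, Atp5j2, Psmb4, Chchd1, Fxyd1, Tnni3 and Lamtor2, with r from 0.988 to 0.996. The median mRNA length of the 100 genes was 892 bases, against 3038 bases over all genes ranked.

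Genes that regulate the respiratory chain did not show the same pattern. Of 12 tested regulators 0 were called by edgeR and 1 had an unadjusted p below 0.05, with 8 negative and 4 positive values and a median log2 fold change of -0.11. Ppargc1a, the coactivator of mitochondrial biogenesis, had 112, 121, 88.0, 113 and 139 CPM in the controls and 76.9, 104, 110, 92.5 and 91.4 CPM in the S1Pless hearts. Control replicates 1 and 3, the highest hearts for complex I, were the lowest controls for this gene (log2 fold change -0.27 ± 0.13, edgeR adjusted p = 0.253). Gabpb1, a subunit of the GA-binding protein, had the smallest p and the opposite direction (0.27 ± 0.09, adjusted p = 0.112). Of 13 genes of mitochondrial import and carriers, 12 were negative (median -0.17), 0 were called by edgeR and 3 had an unadjusted p below 0.05, with Cs, citrate synthase, at -0.27 ± 0.10 (adjusted p = 0.163).

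Of the marker lists for cell types, macrophage markers alone had calls. All 12 cardiomyocyte markers had negative values (median log2 fold change -0.18) with 0 called by edgeR and 1 at an unadjusted p below 0.05, and their summed level was 75540 to 88180 CPM in controls and 62320 to 77952 CPM in S1Pless hearts. The 12 macrophage markers were all positive (median 0.87), and 6 were called higher, against 3.40% of all genes. Their sum was 336 to 436 CPM in controls and 524 to 1309 CPM in S1Pless hearts, highest in S1Pless replicate 5, the heart with the lowest complex I level. S1Pless replicate 4, the next lowest for complex I, had the lowest macrophage sum of its group (524 CPM). Fibroblast markers summed to 784 to 1049 and 972 to 1296 CPM, and endothelial markers to 1105 to 1261 and 1157 to 1398 CPM, with 0 called by edgeR and 2 at an unadjusted p below 0.05 in each list. The 4 smooth muscle markers were all negative (median -0.26) and the 5 erythroid genes all positive (median 0.47), with 0 called by edgeR and 1 and 0 at an unadjusted p below 0.05. In whole heart RNA, fewer muscle cells and less complex I RNA per cell cannot be told apart. The part of these markers in the result was not tested.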

How the data were processed

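RNA from 5 S1Pless and 5 control hearts was analysed from a table of unnormalised gene counts that the authors deposited. A stranded mRNA kit made the libraries, per the labels' protocols. The submitters' processing notes list STAR 2.7.8a, featureCounts 2.0.1 and GRCm39. They name no annotation release, strand setting or treatment of multiply matching reads. Genes with near-identical copies or overlapping neighbours therefore have uncertain counts, and 12 of 33 subunits overlap a gene on the opposite strand and 2 on the same strand.

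Groups follow the genotype label, and replicates are numbered in accession order. Symbols came from a reference table of gene names (20 identifiers had none). GENCODE M21, made for GRCm38, gave mRNA and exon lengths and no coordinates. The test was edgeR 4.0.16 in R 4.3.3 with filterByExpr (minimum count 10), TMM factors, a robust quasi-likelihood fit, two-sided p-values, Benjamini-Hochberg adjustment over 12992 genes and a threshold of 0.05. Each SE was obtained as |log2 fold change| over the root of the F statistic. Correlations used log2 CPM with a prior count of 2. The script was tested on simulated data. Alternatives included DESeq2 1.42.0 and limma-voom with sample quality weights (limma 3.58.1). Values in every heart were given for core subunits, the members with the smallest p-values and those most and least like the rest. Members, gene lists and motifs were chosen with earlier results of these data known.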

Additional observations from a re-analysis of the deposited data

Results flagged for a closer look

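Of 70 sets of 5 hearts examined (33 subunits, their mean and the core-minus-accessory difference, in each group), 1 had a heart set far apart from the others, and chance alone flags about 1 in 20. Ndufa10 in control replicate 3 was at 9.50 log2 CPM, against 9.24 to 9.28 in the other controls.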

How the results depend on the processing

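No subunit was called under any alternative except DESeq2, and in each fit with all 10 hearts the median log2 fold change was negative. Depth was not the limit, since the smallest subunit count was 324; the spread between hearts was. DESeq2 called 1028 genes (764 higher, 264 lower), 2 of them subunits. Library totals alone, which shifted the median of all genes by 0.136 on the log2 scale, gave 1433 calls (1420 higher, 13 lower), 0 subunits at an unadjusted p below 0.05, and a value of 0.0211 for Ndufb7. That subunit count was 2 with limma-voom and sample quality weights and 2 with the title series as a covariate. With title numbers as a block there were 88 calls (80 higher, 8 lower) and 7 such subunits. The share of all genes at an unadjusted p below 0.05 is not given for the alternatives here and below, so these counts of subunits have no background. Median correlations here are without subtraction of group means, and by rank the median was 0.867 against 0.924 by Pearson.

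The next alternatives were chosen after seeing the data. Without control replicates 1 and 3 there were 285 calls (215 higher, 70 lower), 1 subunit at an unadjusted p below 0.05, 17 negative values, a median of -0.0033 and a median r of 0.839. The sign then turned for Ndufa1 (0.0399), Ndufa2 (0.147), Ndufa5 (0.122), Ndufa6 (0.0825), Ndufa8 (0.0132), Ndufa11 (0.0379), Ndufb2 (0.0907), Ndufb3 (0.0868), Ndufb7 (0.167), Ndufb9 (0.119), Ndufb10 (0.0887), Ndufb11 (0.101), Ndufc1 (0.00511), Ndufc2 (0.0262), Ndufs6 (0.0304) and Ndufv3 (0.0708). With mRNA length offsets 94 genes were called lower, 14 subunits had an unadjusted p below 0.05, and the median r was 0.712. The causes were not tested.

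Leaving out each heart in turn gave 126 (without control replicate 3) to 589 (without control replicate 1) calls, 118 to 504 higher and 8 to 85 lower. Subunits at an unadjusted p below 0.05 numbered 1 (without control replicate 3) to 13 (without S1Pless replicate 1). No paired analysis was possible because the labels give the groups no shared replicate numbers; the block on title numbers joins hearts with neighbouring numbers, whose meaning is not stated.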
